A study of Mus musculus with 6 samples.

Results

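Foxp3 and 7 other genes used to recognise regulatory T cells (Tregs), namely Ikzf4, Icos, Ctla4, Izumo1r, Socs2, Lag3 and Swap70, were followed in CD4+ T cells that were being polarized toward Tregs with or without an intact gene for the coactivator SRC2. These genes were taken by symbol, and all 8 of 8 were found among the 2387 genes of the deposited table. RNA-seq was performed on 3 Foxp3YFP-Cre libraries and 3 SRC2fl/fl/Foxp3YFP-Cre libraries, each from a different mouse on the C57BL/6j background. The sample titles call the first genotype WT and the second KO, and these short names are used below. In both, naive CD4+ T cells isolated from spleen with a negative selection kit were activated for 36 hours through CD3 and CD28 with TGFβ while IL-4 and IFNγ were blocked by antibodies. Both genotypes carry Foxp3YFP-Cre, in which Cre and a yellow fluorescent protein are made under the control of Foxp3, so that floxed Ncoa2, the gene for SRC2, is deleted only once a cell turns on Foxp3. The Methods give a general age range of some weeks for the mice, with littermates matched for age and sex, but no separate age for these libraries. No sorting of Tregs before RNA extraction is described for these libraries.

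Values below are the authors' mean counts per 1000000 mapped (CPM) of the 3 libraries of a genotype. The table gives no value per library, so the spread between mice and the depth are unknown, no SD is given, and no test could be run on these means. It also lists only genes with a P value under 0.05 in the authors' own comparison of the genotypes. Presence in the table is therefore not a finding here, and a gene outside it was counted neither as different nor as alike. The genes of the table held 13.9% of all CPM in WT cells and 14.8% in KO cells, and their median log2 ratio of KO over WT was 0.33. Ncoa2, the targeted gene, had a mean of 164 CPM in WT cells and 127 CPM in KO cells, which is 77.7% of the WT level. None of the 10 CD4+ T cell markers listed, such as Cd3e and Cd4, was in the table, so the labelled cell type could not be checked on them.

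Foxp3 is the forkhead transcription factor that specifies and maintains Tregs, and loss of its function causes lethal autoimmunity in mice. In naive CD4+ T cells it is switched on by T cell receptor signals together with TGFβ, and it then works with partner proteins to hold a program of activated and repressed genes. Part of that program encodes surface receptors that restrain other T cells or compete for costimulation, and part tunes the response to cytokines, IL-2 above all.

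Of the 8 genes, 6 had a lower mean in KO cells and 2 had a higher one. Of all genes in the table, 30.8% were lower and 69.2% were higher. With log2 ratios centred on the median of the table, 7 of the 8 were lower and 1 was higher. A difference of at least 1.4-fold, the limit the study used in its volcano plot, was met on the lower side by 4 of the 8, Foxp3, Ikzf4, Icos and Ctla4, where 14.1% of the table did so. On the higher side it was met by 1 of the 8, Lag3, where 26.3% of the table did so. The median log2 ratio of the 8 genes was -0.44, beside 0.33 over the table. The genes were named with earlier results of these data known, so these counts describe the chosen genes and are not support for a direction. Fewer Tregs in a culture and less RNA of these genes per cell cannot be told apart in bulk libraries.

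**Figure D1:**
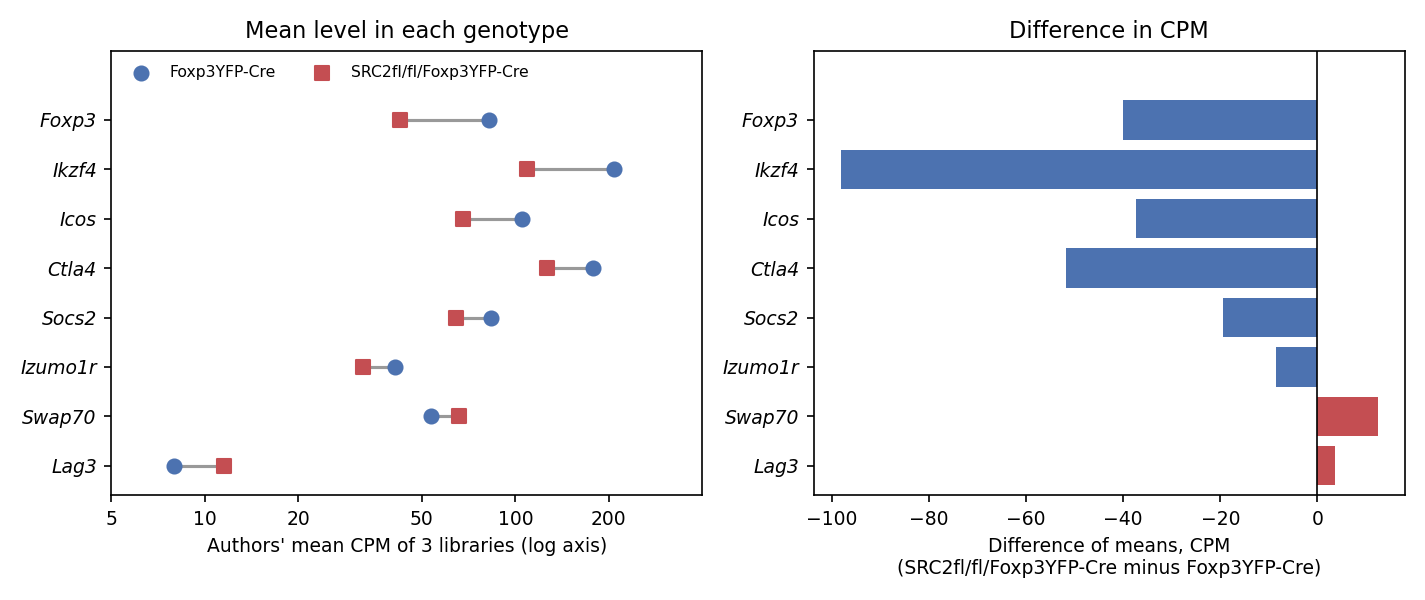
Left, the authors' mean CPM of each of the 8 genes on a log axis, with circles for WT, squares for KO and a line joining both means of a gene. Right, the difference of the means in CPM as bars from 0. There are no error bars because no value per library was given. Foxp3 has the widest gap on the log axis (82.5 against 42.4 CPM), Ikzf4 has the longest bar (-98.2 CPM), and Swap70 and Lag3 lie on the other side of 0.

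The transcription factors of the group differed most. Foxp3 had a mean of 82.5 CPM in WT cells and 42.4 CPM in KO cells, so 51.4% of the WT level was left and the log2 ratio was -0.96. In order of CPM, Foxp3 held rank 435 of the 2387 genes in WT cells and rank 1002 in KO cells. Of the 735 lower genes of the table, 87 had a log2 ratio further below 0. Foxp3 (ENSMUSG00000039521.13) is annotated on chromosome X of GRCm38 from 7573644 to 7595245, plus strand, and in GENCODE M21 this span overlaps Ppp1r3f by 640 bases at one end and Ccdc22 by 1437 bases at the other. Both of these genes are on the minus strand, neither is in the table, and whether counting used strand is not stated, so some reads at these ends could belong to either gene.

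Ikzf4 encodes Eos, a zinc finger protein of the Ikaros family that binds Foxp3 and is needed for Foxp3 to silence part of its repressed genes. Its mean was 207 CPM in WT cells and 109 CPM in KO cells, a log2 ratio of -0.93, with 52.6% of the level left. The log2 ratios of Ikzf4 and Foxp3 differed by 0.03, so these partners were lower by almost the same proportion, although Ikzf4 lost more CPM, with a difference of -98.2 CPM against -40.1 CPM for Foxp3. CPM counts reads and grows with transcript length, so the larger loss in CPM alone does not mean more molecules. Per kb of annotated exon, Ikzf4 had 34.5 in WT cells and 18.1 in KO cells, and Foxp3 had 18.0 and 9.27. The difference of Ikzf4 thus stayed the larger one per kb of annotated exon. Ikzf4 (ENSMUSG00000002578.17) lies on the minus strand of chromosome 10 from 128630843 to 128645991. It was the only one of the 5 Ikaros family genes in the table, and Ikzf2, which encodes the Treg factor Helios, was not in it.

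Icos and Ctla4, receptors of the CD28 family, were also lower, by smaller factors, whereas Pdcd1, another receptor of that family, was higher. Icos, a costimulatory receptor that supports Treg survival and IL-10 production, had 105 CPM in WT cells and 67.8 CPM in KO cells, a log2 ratio of -0.63. Ctla4, the inhibitory receptor that Tregs use to take CD80 and CD86 away from antigen-presenting cells, had 178 CPM and 126 CPM, a log2 ratio of -0.50. The ratio of Ctla4 was 1.41-fold, just inside the limit of 1.4, and with 5 CPM added to both means its log2 ratio of -0.48 was under that limit. Of the lower genes, 30.1% had a log2 ratio further from 0 than Icos and 43.8% had one further from 0 than Ctla4. The log2 ratio of Icos was 0.33 above that of Foxp3 and that of Ctla4 was 0.46 above it, so both receptors kept more of their level than Foxp3 did.

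Icos and Ctla4 are neighbours on the plus strand of chromosome 1, together with Cd28, the main costimulatory receptor of naive T cells. On GRCm38, Cd28 spans 60716800 to 60773359, Ctla4 spans 60887000 to 60915832 and Icos spans 60977927 to 61000320, and these 3 are the only protein-coding genes that GENCODE M21 places within the 284 kb that they cover. Cd28 had 256 CPM in WT cells and 180 CPM in KO cells, a log2 ratio of -0.51, close to the -0.50 of Ctla4. All 3 genes were thus in the table and lower, with 70.2% of the level left for Cd28, 70.9% for Ctla4 and 64.5% for Icos. The nearest protein-coding genes on each side, 16 places in all for the 8 genes, held a gene of the table in 3 cases. These were Ctla4 and Icos, each as neighbour of the other, and Cd28. Ctla4 and Icos are among the 8 genes, which are all in the table, so only Cd28 came from outside them.

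**Figure D2:**
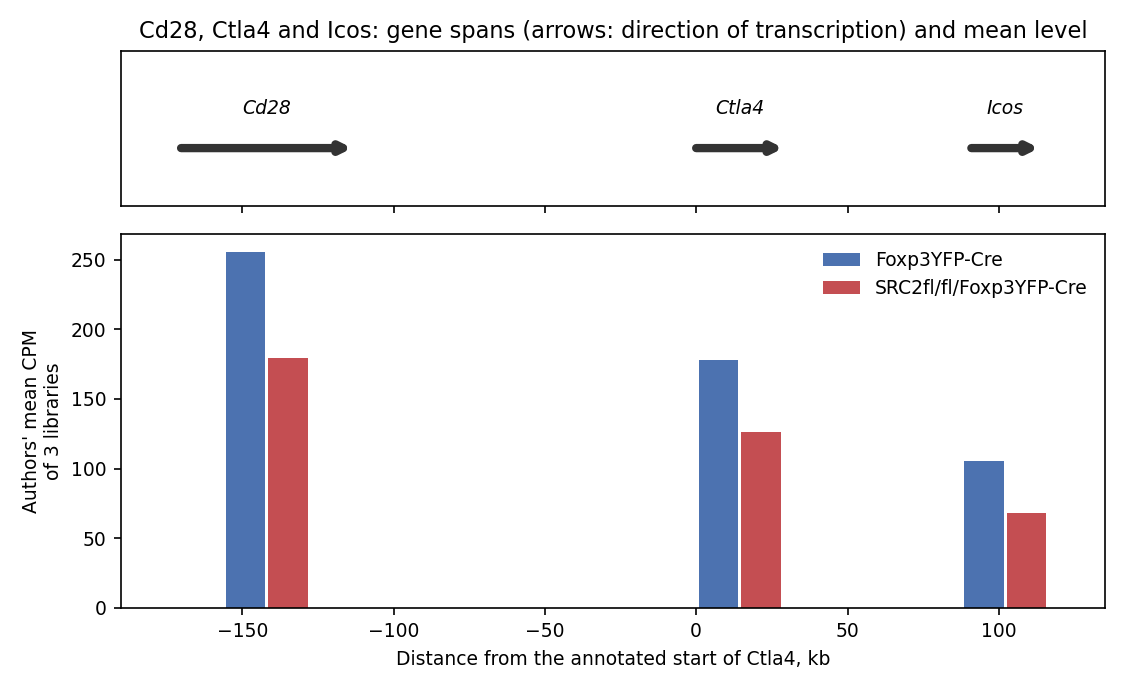
Top, the annotated spans of Cd28, Ctla4 and Icos, drawn to scale as distance in kb from the annotated start of Ctla4, with arrows in the direction of transcription. Bottom, the authors' mean CPM of each gene in both genotypes as bars from 0, with no error bars because no value per library was given. In each of the 3 genes the KO bar is the shorter one, by -76.1 CPM for Cd28, -51.8 CPM for Ctla4 and -37.3 CPM for Icos.

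Promoter sequences, 250 bases before to 50 bases after a start site, were found in the RefSeq table of GRCm38.p6 for 4 of the 8 genes, Foxp3, Ctla4, Izumo1r and Swap70, with 2 start sites 807 bases apart for Foxp3. They were searched on both strands for 5 motifs of factors known to act on Treg genes: the NR4A element AAAGGTCA, the NFAT core GGAAAA, the AP-1 motif TGANTCA, the forkhead motif GTAAACA and the SMAD palindrome GTCTAGAC. The promoters of Foxp3 and Ctla4 are shown because both genes were lower by at least 1.4-fold and each held a match to the NFAT core, printed in capitals on the strand of the gene as its reverse complement. The match begins 141 bases before the later start site of Foxp3, on chrX:7580233-7580532, plus strand, and 145 bases before that of Ctla4, on chr1:60908775-60909074, plus strand. These RefSeq start sites, 7580483 for Foxp3 and 60909025 for Ctla4, lie inside the GENCODE M21 gene spans, which start at 7573644 and 60887000. A start site here is thus not the start of the span given above.
Foxp3: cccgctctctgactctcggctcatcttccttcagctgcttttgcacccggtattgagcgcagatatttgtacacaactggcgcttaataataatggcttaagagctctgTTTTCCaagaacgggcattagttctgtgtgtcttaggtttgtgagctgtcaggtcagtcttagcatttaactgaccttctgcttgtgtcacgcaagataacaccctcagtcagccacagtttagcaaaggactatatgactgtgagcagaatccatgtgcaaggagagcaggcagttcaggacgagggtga
Ctla4: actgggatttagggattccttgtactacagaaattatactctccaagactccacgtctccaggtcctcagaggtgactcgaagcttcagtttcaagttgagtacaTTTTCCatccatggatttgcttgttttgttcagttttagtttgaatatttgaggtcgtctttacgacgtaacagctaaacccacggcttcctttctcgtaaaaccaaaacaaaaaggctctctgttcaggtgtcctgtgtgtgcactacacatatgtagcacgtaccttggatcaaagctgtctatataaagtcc
The NFAT core was found in 23.4% of the 32851 promoters of that table, so a match in these windows is common. Swap70 held 1 match to the forkhead motif, 107 bases before its start site, a motif found in 3.65% of promoters. With 5 motifs searched in 5 windows, a single such match carries little weight, and binding there was not tested. No other match to these letters was found in the 5 windows, and the NR4A element was found in 1.51% of all promoters, the AP-1 motif in 7.81% and the SMAD palindrome in 0.213%. None of the 5 windows held more than 1 match, so no matches overlapped.

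Socs2 and Izumo1r were lower by less than 1.4-fold. Socs2, an intracellular suppressor of cytokine signaling that STAT5 induces, had 83.7 CPM in WT cells and 64.3 CPM in KO cells, a log2 ratio of -0.38, and 62.3% of the lower genes of the table had one further from 0. Izumo1r encodes folate receptor 4, a surface protein abundant on Tregs and also the egg receptor for the sperm protein Izumo1. It had 40.8 CPM in WT cells and 32.4 CPM in KO cells, a log2 ratio of -0.34, and 71.4% of the lower genes had one further from 0. Gpr83, another gene enriched in Tregs, is the nearest protein-coding neighbour of Izumo1r at 15.0 kb and was not in the table. The percentages left of the WT level were 76.8% for Socs2 and 79.2% for Izumo1r.

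Lag3 and Swap70 differed in the other direction. Lag3, an inhibitory receptor for MHC class II that activated effector T cells make as well as Tregs, had 7.96 CPM in WT cells and 11.5 CPM in KO cells. Its log2 ratio was 0.53, a 1.44-fold difference, and 31.5% of the 1652 higher genes had a log2 ratio further from 0. Lag3 had the lowest CPM of the 8 in both genotypes, the only one below the table's median of 37.0 CPM for the higher of both means, and adding 1 CPM to both means brought it under the limit of 1.4-fold, to a log2 ratio of 0.48. Its neighbour Cd4, 16.1 kb away on chromosome 6, was not in the table. Swap70, a signaling protein that binds phosphoinositides and Rac and regulates the actin cytoskeleton, had 53.5 CPM in WT cells and 66.0 CPM in KO cells. Its log2 ratio of 0.30 was just under the median of the table, so that with ratios centred on that median it turned to -0.026, and 79.6% of the higher genes had a log2 ratio further from 0.

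**Figure D3:**
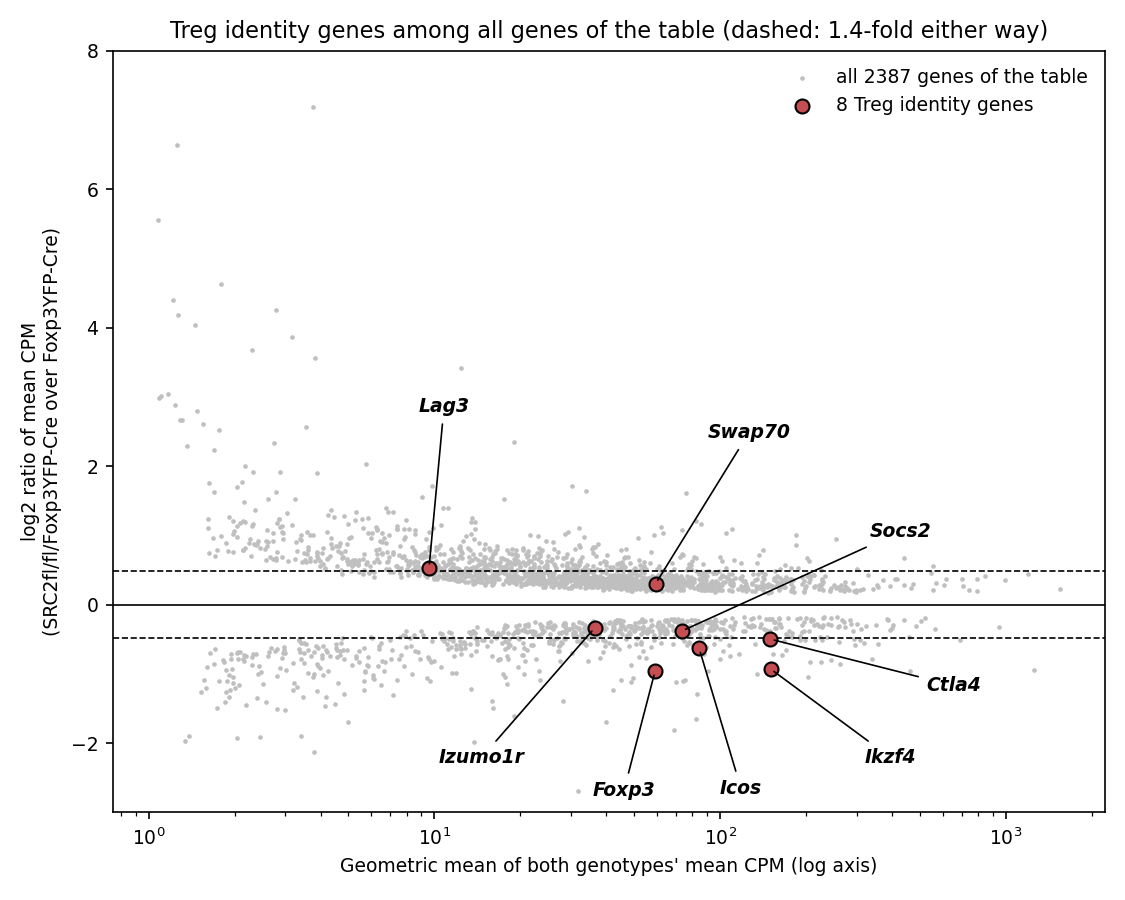
Each point is a gene, with the geometric mean of both genotypes' mean CPM on the x axis (log axis) and the log2 ratio of KO over WT on the y axis. Gray points are all 2387 genes, red points are the 8 Treg identity genes and dashed lines mark 1.4-fold. The empty band around 0 comes with the limit on P that chose the genes of the table. Foxp3 (-0.96) and Ikzf4 (-0.93) are the lowest red points, and Lag3 (0.53) is the highest.

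Levels of the 8 genes were also set in order per kb of annotated exon. With the union of all exons of a gene, Ctla4 was first in WT cells with 76.3 CPM per kb and Lag3 last with 3.78 CPM per kb, and in KO cells they were again first with 54.1 and last with 5.45 CPM per kb. Foxp3 held rank 4 with 18.0 CPM per kb in WT cells and rank 5 with 9.27 CPM per kb in KO cells. Izumo1r lay next to it, with 17.6 and 13.9 CPM per kb, and Ikzf4 and Icos lay above it in both genotypes. The places of Ctla4 and Lag3 were the same with the longest coding transcript as the length, but those between them were not, since Socs2 moved from rank 6 to rank 3 in WT cells. Whether neighbours in this order differ beyond the spread between mice is not known.

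The summed mean of the 8 genes was 758 CPM in WT cells and 519 CPM in KO cells. The 6 lower genes together went from 697 to 442 CPM, a difference of -255 CPM, of which Ikzf4 made up 38.5% and Foxp3 15.7%. The 2 higher genes added 16.0 CPM. The loss in reads was thus mostly that of genes other than Foxp3, as Foxp3 is a single gene among the 6 summed.

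Genes that act on Foxp3 or with it were set beside these values. Of 29 such transcription factors, 13 were in the table, 9 lower and 4 higher, with 5 of the lower and 2 of the higher past 1.4-fold and a median log2 ratio of -0.30. The shares over the table were 30.8% lower and 69.2% higher, and 14.1% and 26.3% past 1.4-fold, and after centring on the table median 11 of the 13 were lower and 2 were higher. Irf4, which cells need for effector Treg function, had 824 CPM in WT cells and 577 CPM in KO cells, a log2 ratio of -0.51. Foxo1, which binds the Foxp3 locus, had a log2 ratio of -0.58, with 362 CPM and 243 CPM. Rel encodes the NF-κB subunit c-Rel, which acts at an enhancer of Foxp3, and its log2 ratio of -0.49 was near those of Ctla4 and Cd28. Ets1 with -0.19 and Lef1 with -0.30 were lower by less than 1.4-fold, as was Nfatc3 with -0.17. These 6 have the highest CPM of the list, and each was lower by a smaller proportion than Foxp3. Nr4a2 with a log2 ratio of -1.39 and Myb with -1.12 were lower by a larger one (both were picked with these values in view). Gata3, with -0.31, was lower by a smaller one. The 4 higher factors of the list were Nr4a1, a relative of Nr4a2, with 0.86, Creb1 with 0.53, Runx1 with 0.30 and Foxo3 with 0.26. Of 19 chromatin and protein-stability regulators of Foxp3, 2 were in the table and both were lower by less than 1.4-fold. They were Tet2, a dioxygenase that oxidizes methylated cytosines, also at the Foxp3 locus, with a log2 ratio of -0.43, and Crebbp, a histone acetyltransferase, with -0.39. Foxp1, a forkhead factor related to Foxp3, had 390 CPM in WT cells and 317 CPM in KO cells, a log2 ratio of -0.30.

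Costimulatory and inhibitory receptors, listed together with the ligands Cd274 and Cd200, went both ways. Of these 20 genes, 8 were in the table, including Icos, Ctla4 and Lag3. The 3 lower ones were Icos, Ctla4 and Cd28, all past 1.4-fold. Of the 5 higher ones, 4 were past 1.4-fold. Over the table, 30.8% of genes were lower and 69.2% were higher, with 14.1% and 26.3% past 1.4-fold. Pdcd1, the inhibitory receptor PD-1, had 57.3 CPM in WT cells and 128 CPM in KO cells, a log2 ratio of 1.16. Cd274, which encodes the PD-1 ligand PD-L1, had 54.3 CPM and 125 CPM, a log2 ratio of 1.21. Cd200, a ligand that restrains myeloid cells, had a log2 ratio of 0.63, so Lag3 at 0.53 was on the same side as these and opposite to Ctla4.

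**Figure D4:**
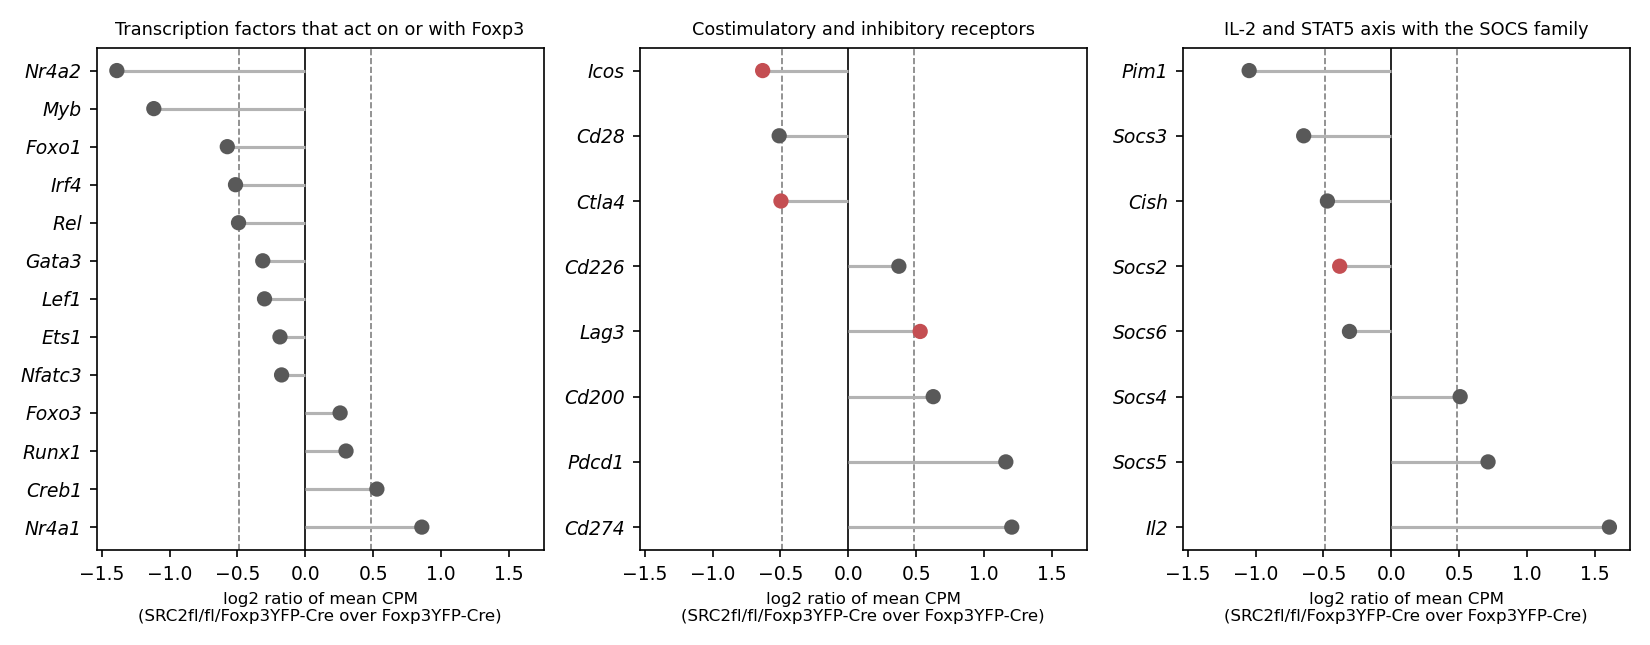
Each point is the log2 ratio of mean CPM of a gene, KO over WT, for the genes of 3 lists found in the table. Red points are genes of the group of 8, gray points are other genes and dashed lines mark 1.4-fold. There are no error bars because no value per library was given. In the middle panel Icos, Cd28 and Ctla4 lie left of 0 and the other 5 genes lie right of it.

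The IL-2 and STAT5 axis was set beside Socs2, with which it shares the SOCS family. Of 18 genes, 8 were in the table, 5 lower and 3 higher, with a median log2 ratio of -0.34. Over the table, 30.8% of genes were lower and 69.2% were higher. Past 1.4-fold were 2 of the lower and 3 of the higher genes of the list, beside 14.1% and 26.3% of the table. Cish, a STAT5 target and SOCS family gene, had 537 CPM in WT cells and 388 CPM in KO cells, a log2 ratio of -0.47. Pim1, a kinase gene that STAT5 induces, had 291 CPM and 141 CPM, a log2 ratio of -1.05. Il2, which encodes the cytokine upstream of both and which Foxp3 is known to repress, had 43.4 CPM and 132 CPM, a log2 ratio of 1.61. Socs2, Cish and Pim1 were thus lower where Il2 was higher, and STAT5 activity was not tested. Pim2 and Pim3, which were not on the list, were higher, with log2 ratios of 0.41 and 0.43. Socs4 and Socs5 were also higher, with log2 ratios of 0.51 and 0.71, whereas Socs3 with -0.65 and Socs6 with -0.31 were lower. Il2ra and Stat5a were not in the table.

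Of 10 genes that Foxp3 is known to repress, 3 were in the table and all 3 were higher, beside 69.2% of all genes of the table. Besides Il2 these were Tnf, with 8.39 CPM in WT cells and 42.8 CPM in KO cells and a log2 ratio of 2.35, and Pde3b, a cyclic nucleotide phosphodiesterase, with 0.25, which is below the table median and turned lower when centred on it. Of the 24 other Treg signature genes listed, 3 were in the table. Lrrc32, the surface anchor of latent TGFβ, was lower with a log2 ratio of -0.35, whereas Cd83 with 0.42 and Itgae, the αE integrin that TGFβ induces, with 0.72 were higher.

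Ligands of these receptors and markers of antigen-presenting cells had higher means in KO cells. Of 10 ligands of Ctla4, Icos and Lag3, 4 were in the table and all 4 were higher, beside 69.2% of all its genes. All 4 were past 1.4-fold, beside 26.3% of all genes of the table on the higher side. Cd80, a ligand of Ctla4, had 35.4 CPM in WT cells and 53.4 CPM in KO cells. The MHC class II genes H2-Aa and H2-Ab1, whose products bind Lag3, had 0.360 and 0.157 CPM in WT cells and 8.91 and 7.39 CPM in KO cells, and H2-Eb1 had 5.99 and 12.1 CPM. Of markers of other cells, 7 of 11 for dendritic cells and 1 of 8 for myeloid cells were in the table. H2-Aa, H2-Ab1 and H2-Eb1 are counted again among these dendritic cell markers, so the ligands and the markers are not separate observations. For mast cells 3 of 5 were in it, and for B cells none of 7. All markers found were higher, where 69.2% of all genes of the table were. Past 1.4-fold were 6 for dendritic cells, 1 for myeloid cells and 3 for mast cells, where 26.3% of all genes were. The summed mean of those found was 73.5 CPM in WT cells and 160 CPM in KO cells for dendritic cells. Most of the WT sum was Cd74, with 55.9 CPM in WT cells and 75.3 CPM in KO cells. The gene with the largest gain was Ccl22, with 3.78 and 40.5 CPM, so the sum does not show an equal rise of these markers. For myeloid cells the sums were 0.310 and 45.4 CPM, which is Lyz2 alone, and for mast cells 1.85 and 22.1 CPM. Naive CD4+ T cells were isolated by negative selection before culture, and the purity reached was not analysed here. The part of other cells in the values of the 8 Treg identity genes was not tested.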

How the data were processed

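Bulk RNA-seq of 3 Foxp3YFP-Cre and 3 SRC2fl/fl/Foxp3YFP-Cre libraries was used. The authors aligned reads to GRCm38, counted them with the Partek E/M algorithm and deposited the values as mean CPM of each genotype, after 0.001 had been added to the CPM of a library. A deposited signal column of totals is 3 times the sum of both means, to a relative difference of 1e-06, and so sums CPM over the 6 libraries. The deposited p-value, ratio and signed fold change columns (other) hold the authors' own comparison by Partek GSA, with a step-up adjusted p in another, and were not used, except that all P values were checked to lie under 0.05. The aligner, annotation and depths are not given in these sources.

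Each log2 ratio is that of both mean CPM values, KO over WT, with nothing added, and checked on made values. A difference counted at 1.4-fold or more. The genes and lists were chosen with earlier results of these data known. Named genes were the 8 genes, Ncoa2, up to 6 of each list by mean CPM, markers of other cells, and the 3 genes nearest to Foxp3. Others (Nr4a1, Nr4a2, Myb, Gata3, Creb1, Runx1, Foxo3, Socs3, Socs6, Pim2, Pim3) were named after their values were seen. The design allowed for counts per library, and its tests could not be run on means. Positions and exon lengths are from GENCODE M21. Python 3.11.15, numpy 2.4.6 and pandas 2.3.3 were used.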

Additional observations from a re-analysis of the deposited data

How the results depend on the processing

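Adding 1 or 5 CPM to both means kept every one of the 8 log2 ratios on its side of 0, and that of Foxp3 was -0.94 and -0.88. Centred on the median of the table it was -1.29, and with the summed CPM of the table made equal, an alternative chosen after seeing the data, it was -1.05. Centring on the median turned Swap70 to -0.026 and left 1 higher gene of the 8. That median is one of genes chosen by P and by level and may not stand for all genes. At a limit of 2-fold, 0 genes were past it on either side. The count of 4 lower genes past the limit was 3 with 5 CPM added, as Ctla4 then fell short of it, and 6 at 1.2-fold and after centring on the median. The count of 1 higher gene past the limit was 2 at a limit of 1.2-fold, and 0 with 1 CPM added, with 5 CPM added, after centring on the median and with equal summed CPM, since Lag3 lies close to 1.4-fold. Centring on the median left 2 higher transcription factors that act on or with Foxp3 in place of 4, and made 1 of the genes that Foxp3 is known to repress lower in place of 0. No value could be given relative to CD4+ T cell markers, as none was in the table. No paired analysis was possible because only group means without replicate numbers were at hand. When only the 2207 genes whose larger mean reached 5 CPM were kept, the share of lower genes further from 0 than Foxp3 was 8.86% in place of 11.8%, and for Icos 22.9% in place of 30.1%. Leaving out libraries, scalings of counts per library and filters on raw counts need values per library and were not run.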

Other observations

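Over the 2 group means, the genes of the table nearest to Foxp3 by distance of their log2 levels were Hbp1, an HMG-box transcriptional repressor, with 71.9 CPM in WT cells and 42.1 CPM in KO cells, Snhg17, a noncoding transcript that hosts small nucleolar RNAs, with 70.7 and 46.3 CPM, and Jarid2, a Polycomb accessory protein, with 67.7 and 42.4 CPM. The distances were 0.20, 0.26 and 0.29 on the log2 scale. With 2 values per gene this is a likeness of levels and not of a pattern across libraries.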
